A study of Mus musculus with 8 samples.

Results

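Major histocompatibility complex (MHC) class I genes were followed in 8 single-cell RNA libraries of microglia, macrophages that live in the brain and spinal cord, sorted from mouse lumbar spinal cord. The 9 genes were chosen by symbol from the 27998 genes of the deposited count tables. They are the classical heavy chains H2-K1 and H2-D1, the nonclassical heavy chains H2-Q4, H2-Q6, H2-Q7, H2-T22, H2-T23 and H2-M3, and B2m, the light chain that all of these heavy chains pair with. All animals were C57BL/6, and all of them, controls included, were heterozygous for a YFP and a tamoxifen-inducible Cre at the Cx3cr1 locus. Cells were sorted for this YFP, so the sort did not separate microglia from other cells that express Cx3cr1. Control animals had wild-type Tnfaip3. The animals called A20 cKO had both Tnfaip3 alleles floxed (Tnfaip3 fl/fl) and were given tamoxifen, and A20 is the ubiquitin-editing enzyme that Tnfaip3 encodes. The paper's methods place every experiment after tamoxifen dosing and do not set the controls apart. Each genotype gave 1 library from naive young adult animals and 3 libraries from injured animals, taken on days 1, 2 and 3 after both sciatic nerves were cut. Microglia of the lumbar cord divide after this injury.

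Class I molecules present peptides from inside the cell. H2-K and H2-D show them to CD8+ T cells and are made by nearly every nucleated cell, while in the healthy cord microglia make rather little of them. H2-Q6 and H2-Q7 encode Qa-2 proteins, and H2-Q4 is a neighbouring class I gene of the same region. H2-T23 encodes Qa-1, which carries leader peptides of other class I chains to the CD94/NKG2 receptors of NK cells. H2-T22 is bound by some gamma-delta T cells, and H2-M3 presents formylated peptides such as those of bacteria. Interferons and NF-kB, which A20 restrains, are both known to act on class I promoters through an interferon-response element, kB sites and the SXY module, to which NLRC5 is recruited.

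Each library was a pool of several animals with no replicate, so every comparison is between single libraries and none was tested. A fit of genotype over the time points, which would take them as replicates, was not run. Ranges in parentheses are 95% intervals that cover counting error only, not the variation between animals or preparations. Of 14883 barcodes, 14626 were kept as cells, between 558 and 3585 a library, with 1620481 to 15817426 unique molecular identifiers (UMIs, each 1 captured RNA molecule). Tnfaip3 itself was at 24.1, 25.3, 6.83 and 20.3 UMIs per 1000000 UMIs of the library (CPM) in the control libraries, naive first and then by day, and at 47.4, 42.3, 52.4 and 67.7 CPM in the A20 cKO libraries, and this order is kept below. Reads from the 3′ end of the transcript need not cover the floxed part, so these values do not check the labels. The libraries fell into 2 sets that the labels do not give. The larger set, control day 3 with the 4 A20 cKO libraries, shared 256 cell barcodes in their 10 pairs, against 98 in the 15 pairs between it and the smaller set of control naive, day 1 and day 2, and 27 in the 3 pairs of these. Per 1000000 possible barcode pairs this was 5.41 to 67.6, 0.797 to 8.83 and 1.48 to 2.29. The ranges within the larger set and between the sets thus overlap. Control day 3 with A20 cKO naive was at 5.41, and control naive with A20 cKO day 1 at 8.83. The microglia markers P2ry12, Tmem119, Csf1r, Fcrls and Cx3cr1 were found in all 8 libraries, with P2ry12 at 2191 to 4026 CPM in the controls and at 845 to 2755 CPM in A20 cKO and Fcrls at 1078 to 1454 CPM in the controls and at 113 to 597 CPM in A20 cKO. Of the 4 neutrophil markers all were at 0 in the 3 control libraries of the smaller set, and they summed to between 20.1 and 35.0 CPM in the other 5. The 3 choroid plexus markers summed to at most 0.142 CPM in those 3 libraries and to between 131 and 413 CPM in the 5, and the 6 markers of monocytes and other macrophages to at most 3.70 CPM and to between 25.3 and 86.0 CPM. Oligodendrocyte markers summed to 22.6 to 36.4 CPM in the 3 and 109 to 166 CPM in the 5, and astrocyte markers to 2.13 to 3.16 and 7.82 to 26.0 CPM. Endothelial markers lay between 13.6 and 51.2 CPM, T and NK cell markers between 0.660 and 17.4 CPM and B cell markers between 21.2 and 51.1 CPM over all 8. Cd3e of T cells, Ms4a1 of B cells and Cd163 of border macrophages were at 0 in all 8 libraries. Comparisons of A20 cKO with control before the injury and on days 1 and 2, and of control day 3 with the other controls, crossed the sets, so there the groups and the sets cannot be told apart. On day 3 the genotypes could be compared within the larger set.

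Promoters of the members were printed because the genes differed widely in how far they stood above control, and their letters can be set beside those values. All 9 members had an entry in the RefSeq promoter table for GRCm38.p6, which holds 250 bases before each start site and also bases after it. Matches were searched over both. Windows of 98 bases upstream of the start sites are shown for 6 members, 5′ to 3′ on the strand of the gene. Capitals mark matches, on either strand, to 5 sets of letters chosen after the promoters had been read. These were GGGGATTCCC, as read from the H2-K1 promoter, the NF-kB consensus, the interferon-response core TTTCACTT, a spaced form of it with GAAA at each end and any 2 bases between, and TGNTGAC of the X2 box. Matches of the first pair overlap, and so do TTTCACTT and the spaced form in H2-T22.
H2-K1, chr17:34000372-34000469, minus strand: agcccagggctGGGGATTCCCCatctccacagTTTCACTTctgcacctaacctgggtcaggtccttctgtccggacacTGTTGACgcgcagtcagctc
H2-Q4, chr17:35379432-35379529, plus strand: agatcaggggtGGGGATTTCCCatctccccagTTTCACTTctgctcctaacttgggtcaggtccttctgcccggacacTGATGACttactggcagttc
H2-Q7, chr17:35439010-35439107, plus strand: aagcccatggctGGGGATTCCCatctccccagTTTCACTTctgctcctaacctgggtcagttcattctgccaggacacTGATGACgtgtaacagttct
H2-T22, chr17:36042868-36042965, minus strand: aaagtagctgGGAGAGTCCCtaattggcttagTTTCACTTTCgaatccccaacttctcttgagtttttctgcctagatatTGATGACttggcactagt
H2-M3, chr17:37270101-37270198, plus strand: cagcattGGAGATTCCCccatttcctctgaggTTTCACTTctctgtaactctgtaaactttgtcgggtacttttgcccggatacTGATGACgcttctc
B2m, chr2:122147516-122147613, plus strand: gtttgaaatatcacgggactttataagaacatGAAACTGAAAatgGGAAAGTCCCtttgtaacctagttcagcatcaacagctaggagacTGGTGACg

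TTTCACTT followed within 70 bases by TGNTGAC was present in 7 of the 9 members, all but B2m and H2-T23, and in 27 of 27025 promoters in the table (0.0999%). GGGGATTCCC was present in H2-K1, H2-D1, H2-Q6 and H2-Q7 and in 28 promoters of all (0.104%). These letters were taken from H2-K1, so its match was fixed in advance, and the share is a description and not a test. H2-Q4 had GGGGATTTCC at that place. A match to the NF-kB consensus was found in 8 members, H2-T23 being the exception, and in 4.35% of all promoters. The spaced form was found in B2m, H2-T22 and H2-T23 and in 3.49% of all promoters. H2-T23 thus had the spaced interferon letters in the bases searched but neither the core nor the kB letters, which says nothing about sites elsewhere. The RefSeq start sites of H2-T23 and H2-D1 lie so far inside the genes as GENCODE gives them that their windows overlap these genes, so the letters of neither are shown and their matches are relative to the RefSeq start. TGNTGAC was in all 9 members and in 14.2% of all promoters.

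**Figure D1:**
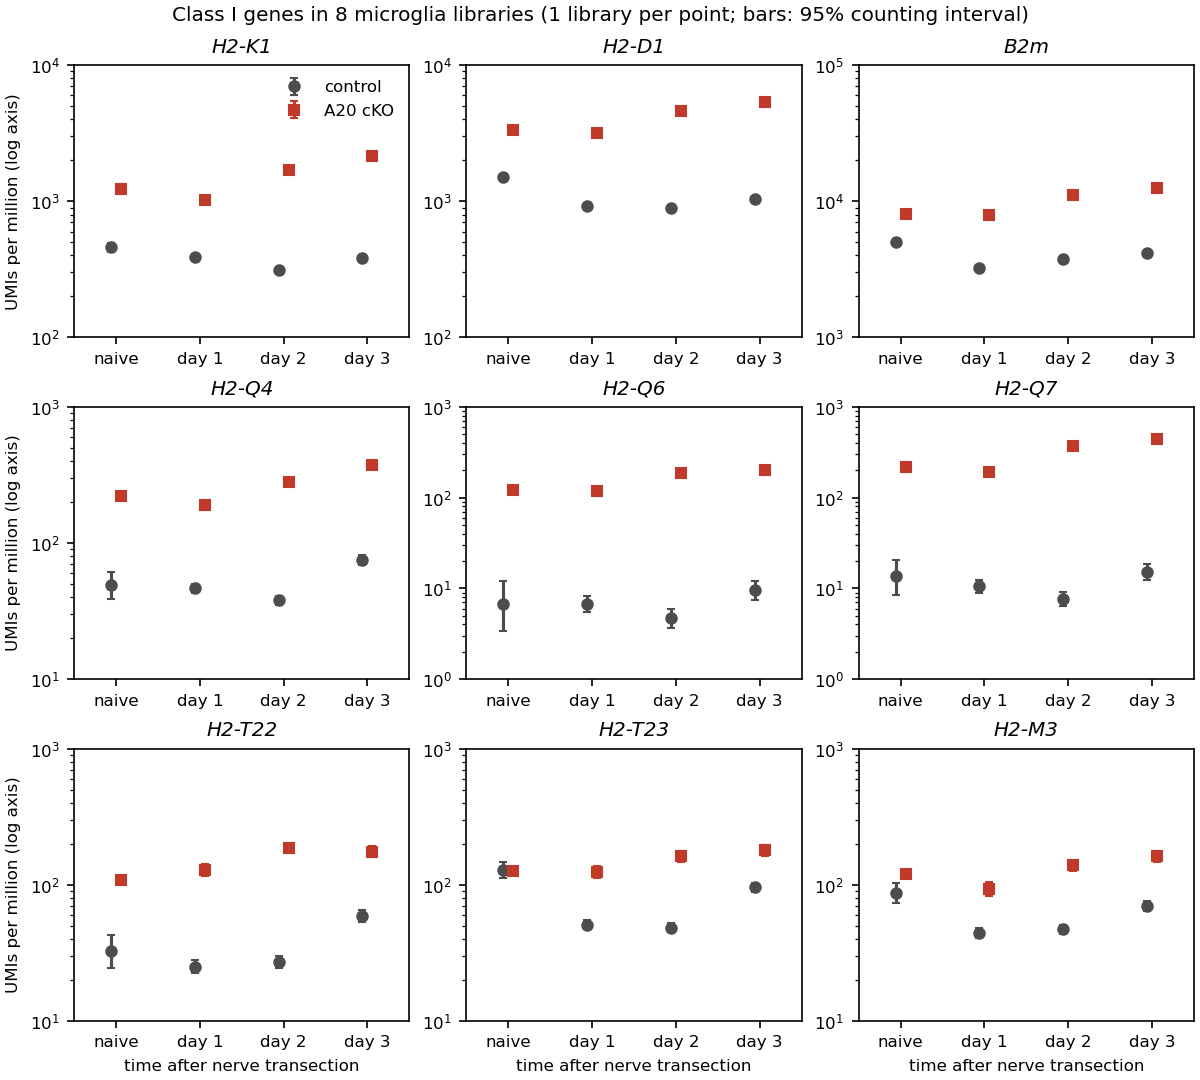
Level of each of the 9 genes as CPM on a log axis against time after nerve transection, 1 library per point, control as grey circles and A20 cKO as red squares, with 95% counting intervals. For all genes but H2-T23 the 4 A20 cKO libraries lay above the 4 control libraries. The share of all genes separated in this way is not given. Control naive, day 1 and day 2 lay in the smaller set and all A20 cKO libraries in the larger.

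Among the classical chains, H2-D1 (chr17:35262730-35267499, plus strand) was the most abundant heavy chain in every library. It was at 1514 (1454 to 1575), 929, 889 and 1046 CPM in the control libraries and at 3358, 3166, 4609 and 5375 CPM in the A20 cKO libraries. H2-K1 (chr17:33996017-34000347, minus strand) was at 458, 388, 310 and 384 CPM in the control libraries and at 1231, 1026, 1713 and 2160 CPM in A20 cKO. Control naive was the highest control library for both genes, A20 cKO day 3 was the highest of all, and the genotypes did not overlap. How many of all genes are without such overlap is not given. Control naive, day 1 and day 2 also lay in the smaller set, so this separation is in part one between sets. Within the larger set, A20 cKO day 3 stood 5.63-fold above control day 3 for H2-K1, a log2 ratio of 2.49 (2.43 to 2.56), and 5.14-fold for H2-D1, a log2 ratio of 2.36 (2.32 to 2.40). H2-D1 UMIs per H2-K1 UMI lay between 2.40 and 3.31 in all 8 libraries, and A20 cKO libraries lay inside the control range. Without cells carrying 2 or more UMIs of other cell types the day 3 log2 ratios were 2.53 for H2-K1 and 2.39 for H2-D1, and without cells with core cycle genes 2.52 and 2.40.

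B2m (chr2:122147686-122153083, plus strand) was at 5041, 3221, 3779 and 4202 CPM in the control libraries and at 8053, 7927, 11198 and 12470 CPM in the A20 cKO libraries. The genotypes again did not overlap, with the same limits, but they lay closer together than for H2-K1 and H2-D1. On day 3 the A20 cKO library was 2.97-fold above control, a log2 ratio of 1.57 (1.55 to 1.59). For each UMI of the 8 heavy-chain genes the control libraries held between 2.15 and 2.75 B2m UMIs, and the A20 cKO libraries between 1.37 and 1.57. The sum of heavy-chain RNA was thus further above control than light-chain RNA.

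H2-Q6 and H2-Q7, which encode Qa-2, showed the widest gap. H2-Q7 (chr17:35439155-35443773, plus strand) was at 13.6 (8.51 to 20.6), 10.6, 7.65 and 15.2 CPM in the control libraries and at 216, 194, 371 and 447 CPM in the A20 cKO libraries. The day 3 ratio was 29.2-fold (log2 4.87, 4.59 to 5.17). H2-Q6 (chr17:35424850-35430055, plus strand) was at 6.79, 6.76, 4.68 and 9.61 CPM and at 123, 117, 187 and 200 CPM, and was 20.7-fold higher on day 3 (log2 4.37, 4.02 to 4.76). Both were low in control naive, with 22 and 11 UMIs, and their copies are so alike that reads could be assigned to either or dropped, which makes their separate values uncertain. H2-Q7 had between 1.57 and 2.24 UMIs per UMI of H2-Q6 in every library. H2-Q4 (chr17:35379617-35385290, plus strand) was already present in control cells, at 48.8, 46.5, 37.9 and 75.3 CPM, and stood at 223, 189, 281 and 372 CPM in the A20 cKO libraries. Its day 3 ratio of 4.93-fold (log2 2.30, 2.15 to 2.46) was close to those of H2-K1 and H2-D1 and well below those of H2-Q6 and H2-Q7.

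The H2-T genes differed from each other. H2-T22 (chr17:36037128-36042747, minus strand) was at 32.7, 25.04, 27.1 and 58.9 CPM in the control libraries and at 108, 129, 188 and 175 CPM in the A20 cKO libraries, 2.98-fold higher on day 3 (log2 1.58, 1.38 to 1.77). H2-T23 (chr17:36029773-36032855, minus strand), the Qa-1 gene, was at 129 (112 to 148), 51.0, 48.5 and 96.2 CPM and at 127, 125, 162 and 179 CPM. It was the member that differed least by genotype before injury and on day 3. In naive animals the genotypes differed by less than the counting error (log2 -0.02, -0.24 to 0.20), and on day 3 it was 1.87-fold higher (log2 0.90, 0.73 to 1.07). H2-T23 UMIs per H2-T22 UMI were 3.94 in control naive, 2.04, 1.79 and 1.63 on control days 1 to 3, and between 0.863 and 1.17 in the A20 cKO libraries. H2-M3 (chr17:37270220-37274484, plus strand), which presents formyl peptides, was at 87.0, 44.3, 47.1 and 69.6 CPM and at 121, 92.8, 139 and 162 CPM. Its A20 cKO libraries were all above its control libraries, but the gap between A20 cKO day 1 and control naive was within the counting intervals, and the day 3 ratio was 2.33-fold (log2 1.22, 1.03 to 1.41).

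**Figure D2:**
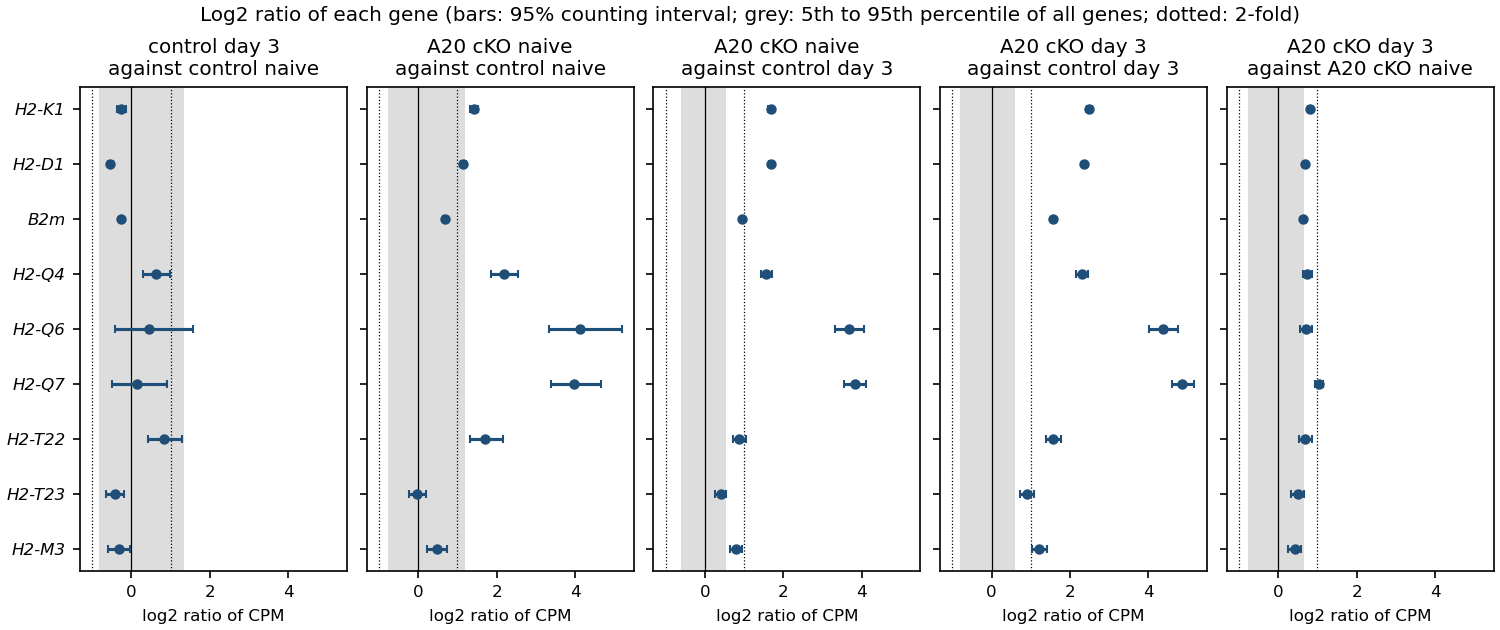
Log2 ratio of CPM for each gene in 5 comparisons of single libraries, with 95% counting intervals, the 5th to 95th percentile of all genes in grey and 2-fold as dotted lines. On day 3 all 9 genes lay right of the grey band in A20 cKO against control, while control day 3 against control naive had all genes inside the band.

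Counts at a threshold of 2-fold summarise these ratios, beside the share of all genes with at least 100 UMIs over the compared libraries that passed it in the same direction. On day 3, within the larger set, 8 of the 9 members were at least 2-fold higher in A20 cKO than in control, against 1.86% of 8488 genes. H2-T23 was the member short of it, and it passed when ratios were centred on the median gene (1.02). The median over the members was 2.30 on the log2 scale, and over all genes it was -0.12. A20 cKO naive against control day 3, also within the larger set, had 5 members past 2-fold, against 0.964% of genes: H2-K1, H2-D1, H2-Q4, H2-Q6 and H2-Q7. Across the sets, A20 cKO naive against control naive had 6 members past 2-fold, against 7.43%, which were the same 5 and H2-T22. On day 1 and on day 2 all 9 were past it, against 15.5% and 10.7% of genes, and H2-M3 on day 1 (1.07) was short of it under 5 alternatives (0.868 to 0.980).

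In the control libraries most members stood lower soon after injury than before it. On days 1 and 2 the median gene was at -0.13 and -0.12 against control naive. All 9 members were below 0, but relative to the median gene H2-Q4 (0.05) and H2-Q6 (0.06) were above it on day 1. Of the members 1, H2-T23, was past 2-fold, at -1.34 (-1.56 to -1.11) and -1.41 (-1.63 to -1.18), against 7.25% and 6.28% of genes lower. H2-D1 was at -0.70 and -0.77. The interval included 0 for the 3 H2-Q genes and H2-T22 on day 1 and for H2-Q6 and H2-T22 on day 2, and H2-Q7 on day 2 was at -1.15 without cells with core cycle genes, where it had 68 UMIs in both libraries and was not counted. These comparisons lay within the smaller set. On day 3 none of the 9 was past 2-fold from control naive in either direction, where 11.1% of genes were. H2-Q6 had under 100 UMIs in this comparison and in that of day 2 with naive. H2-T22 was highest at 0.84 (0.43 to 1.29) and H2-D1 lowest at -0.53 (-0.60 to -0.47). Against control day 2, control day 3 had 2 members past 2-fold, H2-T22 and H2-Q6, against 13.1% of genes, with H2-Q4, H2-Q7 and H2-T23 at 0.99 on the log2 scale. This count was 0 after centring and 4 without shared barcodes, so it rests on values next to the threshold.

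In the A20 cKO libraries the members stood higher on days 2 and 3 than before injury. Against A20 cKO naive, no member was past 2-fold on day 1 or day 2, where 2.95% and 5.5% of genes were, in either direction, and on day 3 only H2-Q7 was, at 1.05 (0.94 to 1.15), where 1.92% of genes were higher. The day 1 ratios lay between -0.38 for H2-M3 and 0.26 for H2-T22. On day 2 and day 3 all 9 were above A20 cKO naive, by 0.20 to 0.79 and by 0.42 to 1.05 on the log2 scale, while the median gene was at -0.07 and -0.10. H2-D1 was at 0.46 (0.43 to 0.49) on day 2 and at 0.68 (0.65 to 0.71) on day 3.

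**Figure D3:**
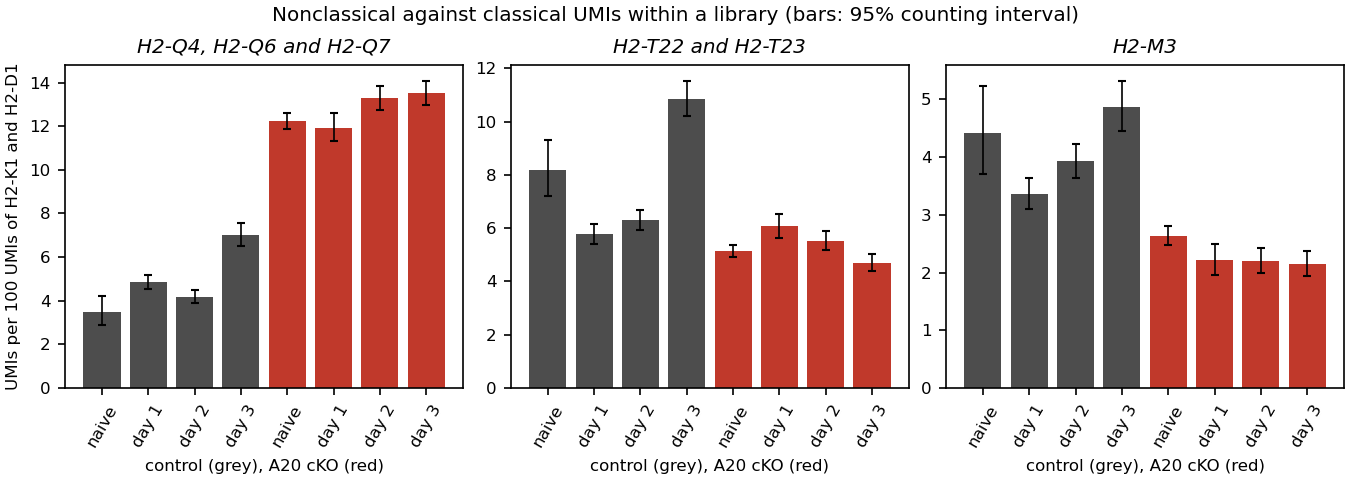
UMIs of the H2-Q genes, the H2-T genes and H2-M3 per 100 UMIs of H2-K1 and H2-D1 within each library, control in grey and A20 cKO in red, with 95% counting intervals. H2-Q lay between 11.9 and 13.5 in A20 cKO and between 3.51 and 7.01 in control, while H2-M3 was lower in A20 cKO.

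The ratio of nonclassical to classical RNA within a library does not depend on scaling between libraries. H2-Q UMIs per 100 classical UMIs were 3.51 (2.88 to 4.23), 4.85, 4.18 and 7.01 in the control libraries and 12.2, 11.9, 13.3 and 13.5 in the A20 cKO libraries. The ratio was steady among the A20 cKO libraries although their summed classical level lay between 4192 and 7536 CPM. H2-T UMIs per 100 classical UMIs were 8.20, 5.77, 6.30 and 10.8 in the control libraries and 5.13, 6.07, 5.53 and 4.71 in the A20 cKO libraries. H2-M3 went from between 3.36 and 4.87 in control to between 2.15 and 2.63 in A20 cKO. The nonclassical genes as a whole made up a similar share of heavy-chain UMIs in most libraries, 13.9%, 12.3%, 12.6% and 18.5% in the control libraries and 16.7%, 16.8%, 17.4% and 16.9% in A20 cKO, with control day 3 highest, but with different genes in them. H2-Q6 and H2-Q7 carried much of that: without them the log2 ratio of nonclassical to classical UMIs was between -3.08 and -2.97 in A20 cKO and between -2.98 and -2.25 in control.

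Shares of cells were read after each cell was thinned at random to 2000 UMIs, since depth differed between libraries. This kept 13691 cells and left out 935. Cells with at least 1 UMI of an H2-Q gene were 12.4%, 11.8%, 9.05% and 16.2% of the control libraries and 50.2%, 45.2%, 74.9% and 82.7% of the A20 cKO libraries, and 17.1%, 22.1%, 18.3% and 25.2% against 56.8%, 56.3%, 89.2% and 95.3% without thinning. H2-Q7 alone was found in 2.79%, 2.29%, 1.32% and 2.56% of control cells and in 26.8%, 23.7%, 47.0% and 54.8% of A20 cKO cells. H2-Q RNA was thus found in most cells of A20 cKO days 2 and 3 and in a minor part of control cells. H2-T23 was found in 20.7%, 9.61%, 9.74% and 17.7% of control cells and in 20.7%, 21.2%, 27.2% and 30.3% of A20 cKO cells, so that the naive libraries had the same share. H2-K1 was found in 45.4% to 56.4% of control cells and in 71.7% to 96.1% of A20 cKO cells. B2m was detected in at least 99.3% of kept cells of every library. The sort held no cell type that should lack class I, so the part of low shares that comes from free RNA could not be read here. Cells with H2-Q UMIs also held more classical UMIs: cells of the naive library with an H2-Q UMI had 11.5 classical UMIs on average and the others 5.45, against 4.18 and 3.72 in control naive.

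**Figure D4:**
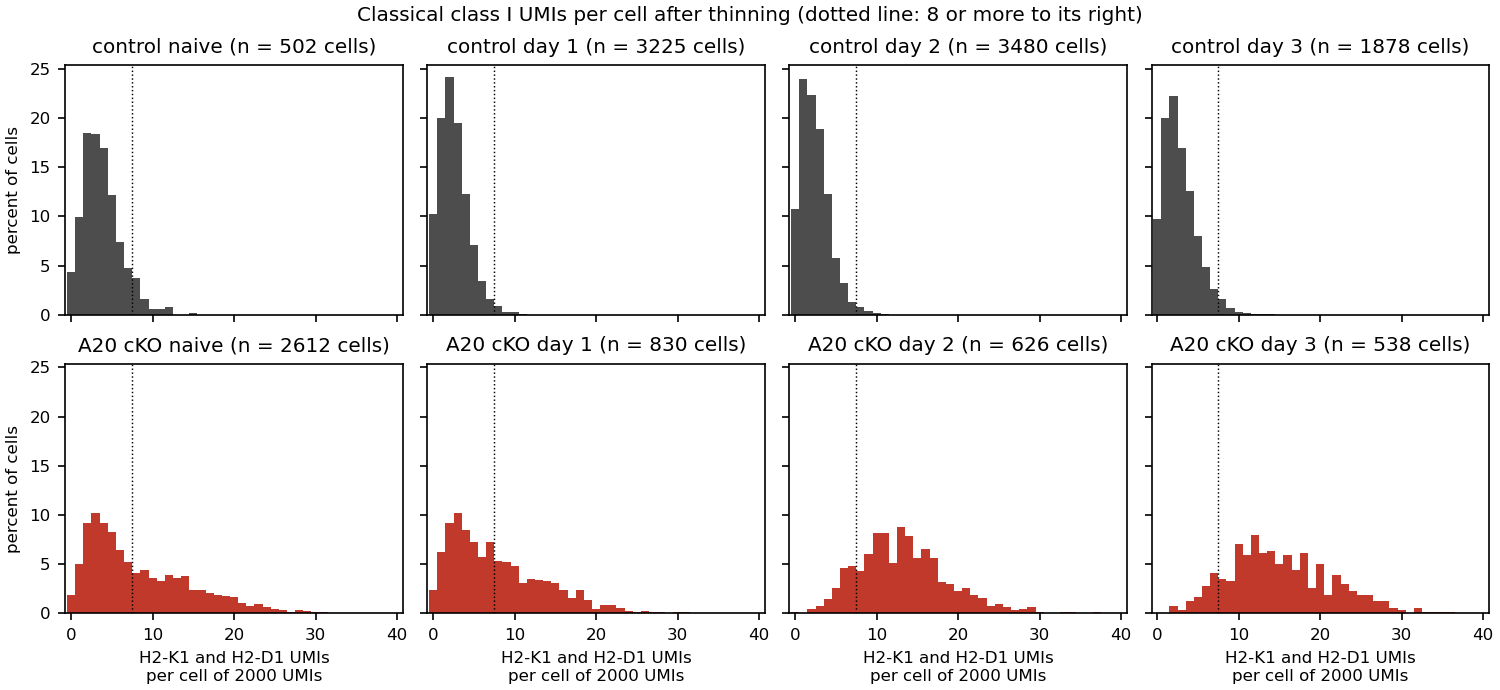
Percent of cells by their number of H2-K1 and H2-D1 UMIs after thinning to 2000 UMIs, control libraries in grey above and A20 cKO libraries in red below, with a dotted line at the cut of 8. Control libraries had a single narrow hump below the cut, A20 cKO naive and day 1 had a hump near 3 and a long shoulder to the right, and A20 cKO days 2 and 3 centred near 13 and 14.

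Cells of the A20 cKO libraries before the injury and on day 1 were mixed in their classical level. The median was 3, 2, 2 and 2 UMIs of H2-K1 and H2-D1 per thinned cell in the control libraries and 6, 7, 13 and 14 in the A20 cKO libraries. The 10th percentile was 1, 0, 0 and 1 in the control libraries, 2 in A20 cKO naive and day 1, and 6 and 7 on days 2 and 3. The variance of the number was 1.30 to 1.55 times its mean in control libraries, 5.05 and 4.25 times in A20 cKO naive and day 1, and 2.31 and 2.65 times on days 2 and 3. Cells with 8 UMIs or more, a cut chosen after these values were seen, were 7.57%, 1.64%, 1.44% and 3.09% of the control libraries and 44.6% (42.6 to 46.5), 43.3%, 85.1% and 89.0% of the A20 cKO libraries. The cut divides a range, not a type: between 2.098% and 12.5% of cells lay at 7 or 8 UMIs, and a cut of 10 gave 36.1% in A20 cKO naive and at most 2.19% in control libraries.

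Cells of A20 cKO naive on either side of this cut differed in other genes too. Those below it held 3876 CPM of P2ry12, the microglial purinergic receptor, 4835 CPM of B2m and 207 CPM of H2-Q genes, and those of control naive below it held 4019, 4778 and 64.7 CPM. Low cells of the naive A20 cKO library were near those of control naive in P2ry12 and B2m but not in H2-Q. These cells were picked by their classical UMIs, and B2m followed the classical genes over the libraries (r 0.978 with H2-K1, 0.990 with H2-D1). The values of B2m and the other members on either side of the cut are thus not independent of it. They cannot show a group of cells like control. Cells at or above the cut held 1666 CPM of P2ry12, a log2 ratio to the cells below of -1.22 (-1.27 to -1.17), and 231 CPM of Fcrls, another microglial gene, at -1.75 (-1.89 to -1.61). H2-Q genes were higher in them by 2.13 (1.99 to 2.26), H2-T by 1.23, B2m by 1.19 and H2-M3 by 1.04 on the log2 scale. Interferon-stimulated genes were higher by 2.08 (2.04 to 2.13), and Cxcl13, a B cell chemoattractant, by 3.26 (3.07 to 3.45). UMIs of other cell types differed by 0.12 (-0.07 to 0.31). Before thinning, the median depth was 3347 UMIs above the cut and 2687 below, and the part of depth was not tested. A20 cKO day 1 gave -1.01 for P2ry12, -2.14 for Fcrls and 2.24 for H2-Q genes. On days 2 and 3, where few cells lay below the cut, P2ry12 was at 0.40 (0.14 to 0.67) and -0.15 (-0.43 to 0.15), Fcrls at -0.16 (-0.76 to 0.52) and 0.45 (-0.42 to 1.61), and interferon-stimulated genes at 0.12 and 0.22. The differences in microglial genes were thus seen in A20 cKO naive and day 1 and not on days 2 and 3. H2-Q genes were still higher above the cut on those days, by 0.84 (0.54 to 1.17) and 0.67 (0.35 to 1.03). Core cycle genes were at 0.88 in A20 cKO naive and at -0.23, -0.79 and -1.29 on days 1, 2 and 3, and their part was not tested. On day 2 UMIs of other cell types were at 6344 CPM below the cut and 245 CPM above it.

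**Figure D5:**
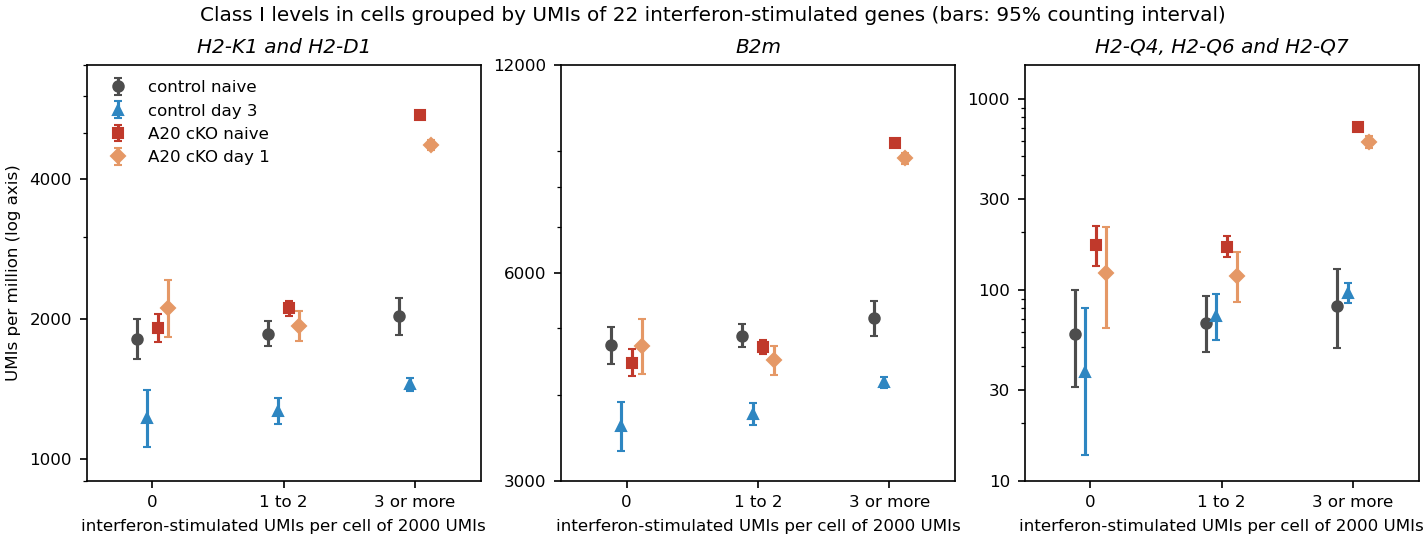
Level in CPM, on log axes, of classical genes, B2m and H2-Q genes in cells with 0, 1 to 2, and 3 or more UMIs of 22 interferon-stimulated genes, for 4 libraries, with 95% counting intervals. A20 cKO naive and day 1 stood apart from control naive in the class of 3 or more in all panels, and control day 3 stayed low in all classes. For H2-Q genes A20 cKO naive also stood above control naive in the lower classes. It was at 172 against 58.6 CPM with 0 such UMIs and at 168 against 67.0 CPM with 1 to 2. The class of 3 or more has no upper bound and was not matched between libraries for interferon-stimulated UMIs.

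Because class I genes respond to interferon, cells were also grouped by their UMIs of 22 interferon-stimulated genes, none of them a member. The class of 3 or more UMIs held 22.9%, 14.2%, 28.8% and 75.9% of cells in the control libraries and 64.2%, 70.7%, 98.2% and 99.6% in the A20 cKO libraries. In A20 cKO naive, classical genes were at 1913, 2109 and 5466 CPM in cells with 0, 1 to 2, and 3 or more such UMIs. In control day 3 they were at 1228, 1272 and 1449 CPM, and in control naive at 1815, 1862 and 2026 CPM. Most cells of control day 3 thus carried interferon-stimulated RNA with a classical level below that of control naive, in a comparison across the sets. Between A20 cKO naive and control naive, cells with 0 such UMIs differed by 0.07 (-0.10 to 0.25) in classical genes, by -0.08 (-0.19 to 0.03) in B2m and by 1.51 (0.69 to 2.53) in H2-Q genes. Cells with 3 or more differed by 1.43, 0.84 and 3.07. The class of 3 or more has no upper bound. Its cells were therefore not matched between libraries for their number of interferon-stimulated UMIs, here or in the comparisons that follow. Within the larger set, A20 cKO day 3 cells of that class stood above those of control day 3 by 2.38 (2.33 to 2.44) in classical genes, 1.58 in B2m, 3.41 in H2-Q genes and 1.16 in H2-T genes. The H2-T genes again parted by class. Between the naive libraries, H2-T22 stood at 2.01 (1.05 to 3.43) in cells with 3 or more such UMIs and at 0.28 (-0.86 to 1.63) in cells with 0. H2-T23 stood at -0.22 (-0.68 to 0.33) and at -1.29 (-2.11 to -0.51) in those classes, so it was lower in the A20 cKO cells that held no interferon-stimulated UMI, from 25 and 33 UMIs.

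Lists of genes that feed and control class I had lower medians than the members between genotypes on day 3, within the larger set. Of 14 genes for peptide loading and the immunoproteasome 0 were past 2-fold higher, where 1.86% of all genes were, with a list median of 0.29, and in naive animals 2 were (0.35), where 7.43% of all genes were. Tap1, which moves peptides into the endoplasmic reticulum, was at 43.2, 44.1, 46.0 and 110 CPM in the controls and at 109, 115, 183 and 188 CPM in A20 cKO, highest of the list on day 3 at 0.77. Psmb9, an immunoproteasome subunit, was next at 0.72, and its partner Psmb8 was at 227 to 329 CPM in the controls and at 319 to 489 CPM in A20 cKO. The folding enzymes Pdia3 and Calr were lowest, at -0.23 and -0.14. Of 19 regulators 4 were past 2-fold higher on day 3, against the same 1.86%, with a list median of 0.12. Nlrc5, the class I transactivator, was at 3.70, 2.77, 2.28 and 13.9 CPM in the controls and at 14.5, 24.4, 21.8 and 32.7 CPM in A20 cKO. Tnfaip3 (1.74) and Nfkb2 (1.63), both NF-kB targets, were highest, and Ifngr1 and Irf2 lowest at -0.38 and -0.28. Tnfaip3, counted among the 4, is the floxed gene, and its reads need not cover the floxed part. The part of NF-kB in these values was not tested.

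Of the 22 interferon-stimulated genes 6 were at least 2-fold higher and 1 lower in A20 cKO day 3 than in control day 3, against 1.86% and 2.4% of all genes, with a list median of 0.53, below the value of every member. Ifitm3 (1.66) and Irf7 (1.64) were highest, and Gbp7 (-1.001) and Gbp3 (-0.54), interferon-induced GTPases, lowest. Control day 3 against control naive had 19 of the 22 at least 2-fold higher, against 8.76% of all genes, with a list median of 2.89. None of the 9 class I members was, with H2-T22 highest at 0.84 and H2-D1 lowest at -0.53. H2-Q6 had under 100 UMIs there. This comparison and that of the naive libraries crossed the sets. A20 cKO naive against control naive had 18 of 22, against 7.43%, with Cxcl10 (6.22) and Ifit2 (5.01) highest and Igtp (0.27) and Gbp7 (0.55) lowest. Immediate-early genes, which answer cell handling as well as stimuli, also differed between libraries: Fos was at 4105 CPM in control day 1, between 20.4 and 301 CPM in the other controls, and between 13.2 and 508 CPM in A20 cKO. On day 3, 2 of 8 were past 2-fold higher in A20 cKO, against 1.86% of all genes, and their part in the class I values was not tested.

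The genes whose level followed each group most closely over the 8 libraries were found by Pearson correlation of log2(CPM + 1) among 3275 genes, as a description of libraries that share a genotype and a set. For H2-K1 and H2-D1 they were Slamf8, Icosl, Ctss, Lilrb4a and Il2rg (r from 0.976 to 0.983). For the H2-Q genes they were Il2rg, Cxcl13, Bcl2a1a, Icosl and Lgals3bp (0.984 to 0.993). For H2-T22 and H2-T23, 4 of the 5 were Cd74, Psmb9, Abr and Bcl2a1d (0.968 to 0.979), of which none was among the other lists of 5. Cd74 is the invariant chain of MHC class II.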

How the data were processed

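UMI counts, not normalized, were deposited by the authors as 1 sparse gene-by-barcode matrix per library. The submitters' processing notes name Cell Ranger 2.1.1 and mm10; the kit version differs between labels and methods. Cells with at least 1000 UMIs, 500 genes and at most 10% mitochondrial UMIs were kept. The sort excluded doublets and no doublet caller was run. UMIs were summed per library and given as CPM of all UMIs; each molecule is counted 1 time at its 3′ end, so no length enters. Ratios had 0.5 UMIs added. Intervals were exact (Poisson, Clopper-Pearson, conditional binomial for ratios) at 95%. With 1 library per group no test was run, and 2-fold was the threshold for genes with at least 100 UMIs over both libraries. Replicate numbers only name libraries. Per-cell values used cells thinned without replacement to 2000 UMIs. Of 27998 gene identifiers, 27645 matched GENCODE M21 (GRCm38), which gave gene coordinates. Promoters came from RefSeq. Members and lists were chosen with earlier results of these data known. Named genes were the members, Nlrc5, Tap1, Psmb8 and Tnfaip3, the 2 highest and 2 lowest of each list in A20 cKO against control in naive animals and on day 3, and the 5 genes closest in pattern; others (Fos, Fcrls, P2ry12, Cxcl13) were chosen after their values were seen. A few genes under this rule are not reported here. The functions were tested on simulated counts. Python 3.11.15, numpy 2.4.6, scipy 1.17.1 and pandas 2.3.3 were used.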

Additional observations from a re-analysis of the deposited data

Results flagged for a closer look

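Opposite directions after injury in the control and the A20 cKO libraries flagged 12 pairs of ratios, each a single library against the naive library of its genotype. The difference was not tested, since each group had 1 library. On day 2, H2-K1 was at -0.56 in control and 0.48 in A20 cKO on the log2 scale, H2-D1 at -0.77 and 0.46, and B2m at -0.42 and 0.48. H2-Q4 was at -0.37 and 0.34, and H2-Q7 at -0.85 and 0.78. H2-T23 was at -1.41 and 0.35, and H2-M3 at -0.89 and 0.20. On day 3, H2-K1 was at -0.25 and 0.81, H2-D1 at -0.53 and 0.68, B2m at -0.26 and 0.63, H2-T23 at -0.43 and 0.50, and H2-M3 at -0.33 and 0.42. The day 3 control ratio crosses the sets of libraries that share barcodes, and the day 2 control ratio lies within the smaller set.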

How the results depend on the processing

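No paired analysis was possible because the results come from no test, each group having 1 library, and the replicate numbers only name libraries. A fit of genotype with time points as blocks was not run, and no replicate could be left out. No value past 2-fold changed its direction. Of 108 member ratios, 8 crossed 2-fold under at least 1 alternative, 5 of them in control day 3 against control day 2. The number of members past 2-fold stayed within 1.5 times its value in 11 of the 12 comparisons under all 11 alternatives tried, counting members with at least 100 UMIs except where this minimum was dropped; control day 3 against control day 2 went from 2 to 0 (centred on the median gene), 1 (mean of cell CPM), 4 (without shared barcodes) and 4 (without cells with markers of other types, Pecam1, Cd79b, Klrd1 and Plac8 left out of the markers, an alternative chosen after seeing the data). The log2 ratio of nonclassical to classical UMIs moved without H2-Q6 and H2-Q7 to -2.98, -2.90 and -2.25 in control days 1, 2 and 3 and to -2.99, -2.97, -3.04 and -3.08 in A20 cKO naive, day 1, day 2 and day 3. Without cells with core cycle genes it moved to -2.87 and -2.24 in control days 2 and 3 and to -2.37, -2.33 and -2.36 in A20 cKO naive, day 2 and day 3. The share of cells with an H2-Q UMI depends on depth by construction: without thinning it was 17.1%, 22.1%, 18.3% and 25.2% in the control libraries and 56.8%, 56.3%, 89.2% and 95.3% in A20 cKO, and at 1000 UMIs 6.69%, 6.38%, 4.85% and 7.94%, and 34.6%, 30.6%, 52.3% and 61.6%. Depth limits H2-Q6 and H2-Q7 in control naive most.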

Other observations

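Other class I and class I-like genes were low in these cells. Of 25 on the list, 19 were in the tables and 5 had at least 100 UMIs on day 3 in A20 cKO and control together. Of these, 2 were at least 2-fold lower in A20 cKO and 0 higher, against 2.4% and 1.86% of all genes. They were Cd1d1, which presents lipids, at -1.34 (28.4, 11.2, 10.5 and 12.4 CPM in the control libraries and 10.9, 7.59, 2.64 and 4.72 CPM in A20 cKO), and Hfe, a regulator of iron uptake, at -1.05 (120, 124, 138 and 115 CPM, and 78.1, 71.3, 64.3 and 55.5 CPM). H2-T24 was at 0.48 and Mr1, which presents vitamin B metabolites, at -0.18. H2-Q10 had 3.70, 3.56, 0.822 and 3.57 CPM in the control libraries and 11.5, 14.5, 17.5 and 16.9 CPM in A20 cKO, and its reads could come from the related H2-Q genes.

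Of 10 genes for receptors of class I, 9 were in the tables and 2 had enough UMIs on day 3. Lilrb4a, an inhibitory receptor gene, was at 10.5, 4.98, 4.87 and 7.27 CPM in the control libraries and at 54.9, 105, 99.5 and 118 CPM in A20 cKO, a day 3 log2 ratio of 4.005. Pirb, which binds class I, was at 33.3, 29.7, 28.0 and 59.1 CPM and at 64.7, 52.8, 55.7 and 90.9 CPM, a ratio of 0.62. Klrc1 and Klrc2, which encode receptor chains for Qa-1, had 0 UMIs in all 8 libraries.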
